A study of Mus musculus with 12 samples.

Results

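Lipid droplet proteins and the enzymes that empty the droplet were followed in adipose vascular anomalies of mice, which are vessel-rich lesions in fat, and in normal mouse adipose tissue. The 10 genes were chosen by symbol: the perilipins Plin1, Plin2, Plin4 and Plin5, the droplet proteins Cidea and Cidec, the lipases Pnpla2, Lipe and Mgll, and the lipase activator Abhd5. All 10 were found, by Ensembl identifier, among the 32774 genes of the deposited table. RNA of whole tissue was sequenced from 8 anomaly libraries of 7 animals and 4 control libraries of 4 animals, all C57BL/6. The anomalies came from mice of genotype VEC-Cre, SB Transposase and onc3, in which Cre is driven by the promoter of the endothelial cadherin gene. The controls carried the SB Transposase and onc3 as well and lacked VEC-Cre. Sleeping Beauty (SB) transposase moves transposons such as onc3 within the genome, and the promoter places Cre in endothelium, whereas the RNA came from all cells of the tissue. Ages are not given in the sources used here, and nothing states whether the animals were littermates. Each library came from 1 piece of tissue, and for M566 both a leg and an arm anomaly were sequenced. Anomalies of 5 animals are titled subQ (M580, M566, F578, M610 and M605) and those of 2 animals are titled fat (18f and M278). All 4 controls (F539, M5, M602 and M2) are titled fat, so for the subQ anomalies site and lesion cannot be told apart.

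A lipid droplet is a core of triglyceride under a single layer of phospholipid, and its surface proteins decide which enzymes reach the core. In fat cells perilipin 1 covers the droplet and holds ABHD5. When catecholamines raise cyclic AMP, protein kinase A phosphorylates perilipin 1 and ABHD5 is released to activate ATGL, the product of Pnpla2. ATGL takes the first fatty acid from triglyceride, hormone-sensitive lipase (Lipe) the next, and monoglyceride lipase (Mgll) the last, leaving glycerol.

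The values are the authors' log2 CPM, read counts on a log2 scale. They were scaled to library size multiplied by a further factor for each library. This factor was 1.09 to 1.41 in the anomalies and 0.79 to 1.09 in the controls. Each value could be traced back to whole reads, which summed to between 10337258 and 33980694 per library apart from the library of M580 with 953994. A single read amounted to 0.742 CPM in M580, while 3 reads amounted to 0.0914 to 0.267 CPM elsewhere. None of the 10 genes had 0 reads in any library, and 7 of their 120 values rested on under 20 reads. These were Plin1 in M580 and Plin5 and Cidea in M580, F578 and M610. The tissue label was checked with 12 markers of mature fat cells. All 12 fell in the anomalies by the limma test described below, which called 23.2% of all genes lower. None of the 12 had 0 reads in any library. Their summed level ran from 957 to 22861 CPM in the anomalies and from 31736 to 79388 CPM in the controls, lowest in the leg piece of M566. In whole tissue, fewer fat cells and less RNA per fat cell cannot be told apart. Other cell types differed too, and their part in the results was not tested. Of 10 macrophage markers 6 rose, against 15.3% of all genes. The sum of the 10 was 776 to 6217 CPM in anomalies against 779 to 1523 CPM in controls. Of 10 endothelial markers 5 rose, also against 15.3% of all genes (sums of 1107 to 5695 against 1260 to 2440 CPM). Of 6 epithelial markers 5 were tested and none passed, but the summed level of the 6 was uneven within both groups, at 6542 and 5210 CPM in the leg and arm pieces of M566, 1122 CPM in control F539 and 2.75 to 7.97 CPM in the other controls.

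Most of the droplet and lipolysis genes were lower in the anomalies. Of the 10 genes, 8 fell and 0 rose at an adjusted p under 0.05, and 2, Plin2 and Cidea, did not pass the test. The test was limma across 12955 genes with Benjamini-Hochberg adjustment over all of them, with the pieces of M566 averaged, and it called 23.2% of all genes lower and 15.3% higher, 38.5% together. All adjusted p given for single genes come from this limma test unless another is named. The median log2 fold change (anomaly minus control) was -3.73 over the 10 genes and -0.10 over all genes tested. The anomaly libraries lay wholly below the control libraries for 3 genes, Plin1, Pnpla2 and Lipe, and for 10.8% of all genes, while none of the 10 genes and 6.88% of all genes lay wholly above. With limma-voom on the recovered reads, which weights values by depth, 4 genes were lower (Plin5, Pnpla2, Lipe and Abhd5), against 22.8% of all genes. With the fat-titled anomalies alone 1 was lower (Plin1), against 5.47% of all genes, and with the subQ-titled alone 9 (all but Cidea), against 26.2%.

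**Figure D1:**
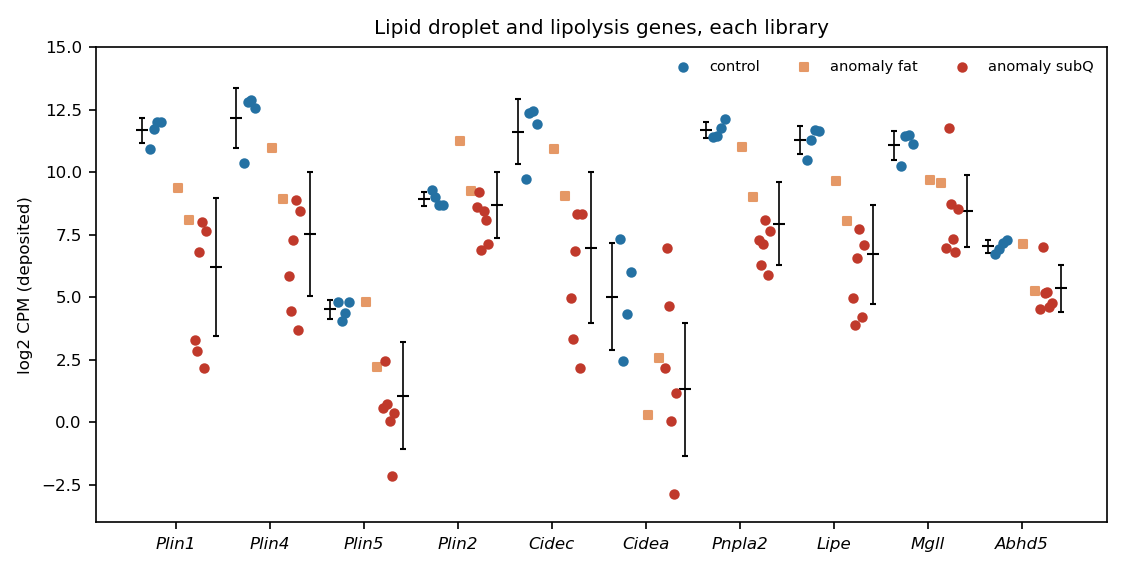
Deposited log2 CPM (vertical axis) of the 10 genes in each of the 12 libraries, with black marks at the mean ± SD over 4 control and 7 anomaly animals. Points are blue for controls, orange squares for fat-titled and red circles for subQ-titled anomalies; Plin1, Pnpla2 and Lipe show no overlap between anomalies and controls, while Plin2 lies at 8.68 ± 1.30 and 8.92 ± 0.29.

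Plin1, the main coat protein of fat cell droplets (chromosome 7, 79720218 to 79732903, GRCm38), had the largest fall of the 10. It stood at 10.92, 11.74, 12.01 and 11.99 log2 CPM in controls F539, M5, M602 and M2. The anomaly libraries ran from 2.15 over a median of 7.23 to 9.37 log2 CPM. The lowest were M610, the leg piece of M566 and M580, at 2.15, 2.84 and 3.27 log2 CPM, and the highest was 18f. The log2 fold change was -5.48 ± 1.28 (SE, adjusted p = 0.00775), a 44.5-fold lower geometric mean in 7 anomaly than in 4 control animals. With limma-voom it was -4.91 (adjusted p = 0.0819). Its level followed Adipoq, the gene of the fat cell hormone adiponectin. Plin1 minus Adipoq was -0.02 ± 0.41 log2 units in the 7 anomaly animals and -0.02 ± 0.37 among controls (SD), a description chosen after the values were seen. The signed log2 difference, gene minus Adipoq, was higher in the anomalies than in the controls for the other 9 genes, by 0.84 for Plin4 and Cidec, 0.92 for Lipe, 1.73 for Pnpla2 and 1.77 for Cidea. It was higher by 2.03 for Plin5, 2.85 for Mgll, 3.81 for Abhd5 and 5.24 for Plin2. Adipoq itself changed by -5.48 ± 1.42 (SE), against a median of -0.10 over all genes tested. These differences therefore restate the fold changes of the single genes. How many other genes shift as much against Adipoq was not tested.

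Plin4, which coats small droplets in fat cells (chromosome 17, 56100591 to 56109803), had control values of 10.36 in F539, 12.82 in M5, 12.88 in M602 and 12.56 in M2. Its anomaly libraries ran from 3.67 over a median of 7.87 to 10.96 log2 CPM, and 7 of 8 lay below every control, the exception being 18f. Its log2 fold change was -4.64 ± 1.21 (adjusted p = 0.0124), and -4.37 with limma-voom (adjusted p = 0.0726). Plin5, the perilipin of tissues that burn fat, where it links droplets to mitochondria (chromosome 17, 56111601 to 56117596), was the scarcest of the 10. Controls stood at 4.82, 4.06, 4.36 and 4.81 log2 CPM in the order above, and the anomalies ran from -2.15 over 0.66 to 4.80, again with 18f alone above the lowest control. Its lowest values rested on 5 reads in M610 and 2 in M580 (exact 95% Poisson intervals of 1.62 to 11.7 and 0.242 to 7.22 reads, for counting error only). Plin5 changed by -3.45 ± 1.00 (adjusted p = 0.0198). The call was lost without M602 (adjusted p = 0.0526), without M2 (0.0568) and without M566 and F539 together (0.0502). Skeletal muscle also makes Plin5 and Plin4. None of 8 muscle markers passed the test, and their sum was 15.97 to 5004 CPM in the anomalies and 692 to 2372 CPM in the controls.

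Plin2, which coats droplets in most cell types, including lipid-laden macrophages (chromosome 4, 86648386 to 86670060), was not lower as a group. It stood at 9.30, 9.01, 8.70 and 8.68 log2 CPM in the controls and ran from 6.89 over 8.53 to 11.24 in the anomalies. Of the 8 anomaly libraries 5 lay below every control, with the arm piece of M566 and M605 lowest at 6.89 and 7.12. Only 18f, at 11.24, lay above all controls. The groups differed by -0.24 ± 0.62 on the log2 scale (adjusted p = 0.780). Its sign turned with library totals in place of the authors' scaling (0.19), without animal M605 (0.02) and in the fat-titled anomalies alone (1.33, adjusted p = 0.173). Without 18f the log2 fold change of Plin2 was -0.67 (adjusted p = 0.152). In the subQ-titled anomalies alone Plin2 was lower (-0.87, adjusted p = 0.0449), a call not made in the fit with 3 groups (adjusted p = 0.116). Library 18f also had the highest sum of 6 markers of lipid-associated macrophages, at 5405 CPM, followed by M278 at 3062 CPM. The other anomalies had 496 to 1556 CPM and the controls 216 to 568 CPM, and 3 of the 6 markers rose, against 15.3% of all genes. Control F539, with Plin2 at 9.30, had a sum of 411 CPM, and M610, with Plin2 at 8.07, had 1556 CPM. Library 18f held the highest fat cell sum of the anomalies as well, at 22861 CPM. Whether lipid-associated macrophages or other cells carried the Plin2 RNA was not tested.

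Within a library, Plin2 stood higher relative to Plin1 in the anomalies. Plin2 minus Plin1, a difference that no scaling of the library alters, was -1.63, -2.72, -3.30 and -3.32 log2 units in controls F539, M5, M602 and M2. In the anomalies it ran from -0.53 in M605 to 6.36 in the leg piece of M566. All 7 anomaly animals lay above all controls, with means of 2.50 ± 2.43 and -2.74 ± 0.79 (SD). The difference of 5.24 had an exact two-sided permutation p of 0.00606 over 330 regroupings of the animals, and 0.0424 after Benjamini-Hochberg adjustment over the 7 differences tested in this way. With Plin1 changed by -5.48 and Plin2 by -0.24, the difference mostly restates the fall of Plin1. How many other genes shift as much against Plin1 was not tested, and the pairs were chosen with earlier results of these data known. Plin4 minus Plin1 differed by 0.84 (permutation p = 0.0636, adjusted 0.111), and Plin5 minus Plin1 by 2.03 (p = 0.109, adjusted 0.153), neither past the threshold. Without control F539, M5, M602 or M2 the Plin2 to Plin1 difference lay between 5.05 and 5.61. Its adjusted permutation p was then 0.0778 to 0.117, in a design whose smallest unadjusted permutation p is 0.00833. Without M278 the difference was 5.45 (adjusted permutation p = 0.0667), without M580 4.77 and without 18f 5.34 (adjusted permutation p = 0.05 for both). It passed without M566, F578, M610 or M605 (adjusted permutation p = 0.0333 for each).

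RefSeq stretches upstream of Plin1, which fell most, and of Plin2, which did not pass, are shown to set the paired genes side by side. They cover bases 250 to 128 before the start of Plin1 and 250 to 2 before that of Plin2. Only bases outside annotated exons are given, 5′ to 3′ on the gene's strand, and the capitals mark 1 of the strings searched for in each. In Plin1 (chr7:79732904-79733026, minus strand, GRCm38.p6) they are a C/EBP-type string, read on the other strand. A further such string of Plin1, at bases 59 to 51 before the start, lies outside the stretch shown. In Plin2 (chr4:86670061-86670309, minus strand) the capitals are the half-site letters of nuclear receptors, also read on the other strand. The Plin2 stretch also holds the letters CCAAT, left in lower case.
Plin1: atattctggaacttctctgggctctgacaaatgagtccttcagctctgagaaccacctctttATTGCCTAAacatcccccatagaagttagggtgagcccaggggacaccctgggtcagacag
Plin2: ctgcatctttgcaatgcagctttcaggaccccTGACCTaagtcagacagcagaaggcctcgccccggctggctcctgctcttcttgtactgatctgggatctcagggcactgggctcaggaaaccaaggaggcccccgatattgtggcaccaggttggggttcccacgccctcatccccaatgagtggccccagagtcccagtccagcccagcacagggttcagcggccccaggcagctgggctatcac

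**Figure D2:**
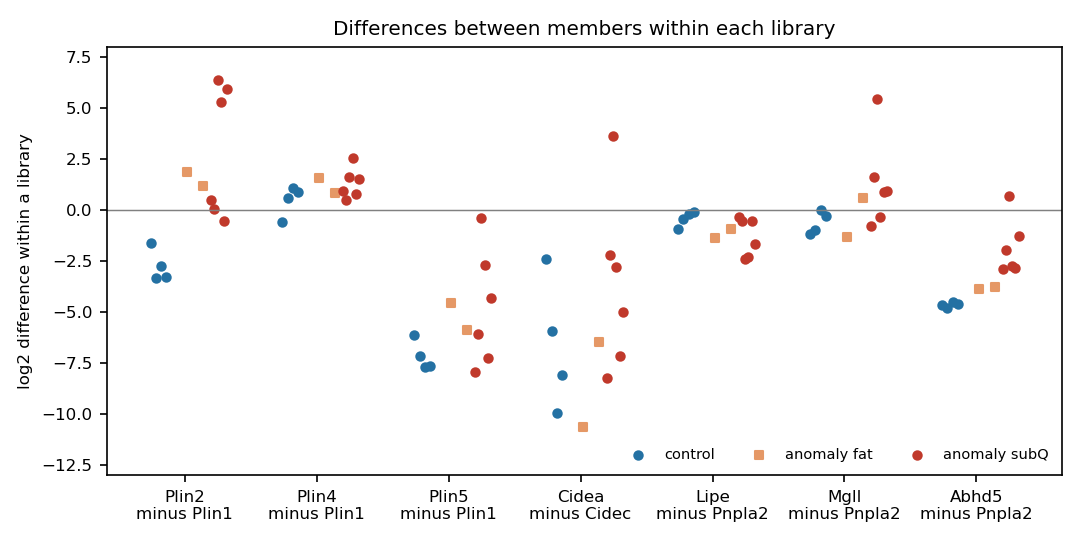
Log2 difference between paired genes within each library (vertical axis) for the 7 pairs, 1 point per library; controls are blue, fat-titled anomalies orange squares and subQ-titled anomalies red circles. For Plin2 minus Plin1 and Abhd5 minus Pnpla2 every anomaly library lies above the 4 controls, by group means of 5.24 and 2.08 log2 units.

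Cidec, which lets fat from one droplet pass into another and so builds the single large droplet of white fat cells (chromosome 6, 113424634 to 113435760), was also lower. Controls stood at 9.72, 12.38, 12.44 and 11.94 log2 CPM in F539, M5, M602 and M2. Anomalies ran from 2.15 over 7.58 to 10.94, a wider range than for any other member but Cidea. M610 was again lowest and 18f highest, and only 18f lay above the lowest control. Cidec changed by -4.64 ± 1.45 (adjusted p = 0.0270). It missed the threshold with limma-voom (-4.17, adjusted p = 0.153) and without M5, M602 or M2 (adjusted p of 0.0698, 0.0814 and 0.0699), and without M580 and M566 together (-3.86, 0.0829).

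Cidea, a relative of Cidec that in mice marks brown and beige fat cells (chromosome 18, 67343604 to 67367785), did not pass the test. Its controls were spread over 7.33, 2.43, 4.32 and 6.01 log2 CPM, and the anomalies over -2.85 to 6.97 with a median of 1.67, so the groups overlapped widely. The lowest value, in M610, rested on 3 reads (exact 95% Poisson interval 0.619 to 8.77 reads, counting error only). The estimate was -3.71 ± 1.41 (adjusted p = 0.0576), and it passed without M566 (-4.45, adjusted p = 0.0136) and without M5 (-4.57, 0.0421). It also passed with the arm piece alone standing for M566 (adjusted p = 0.0341), without M580 and M566 together (0.0170) and with a pseudocount of 1 CPM (0.0498). In 19 of 25 alternatives Cidea did not pass. Among these were limma-voom (-3.39, adjusted p = 0.0717) and the fit without F539 (-2.94, adjusted p = 0.146). The highest anomaly value was the leg piece of M566 at 6.97, where the summed epithelial markers were also highest, and the highest control was F539, the control with high epithelial markers. Mouse mammary and sebaceous cells also make Cidea, and their part in its level was not tested. Without M566 and F539 together Cidea had a log2 fold change of -3.69 (adjusted p = 0.0342). Of 8 brown fat markers, 3 passed the filter on low values (Cox8b, Cox7a1 and Ppargc1a) and all 3 fell, against 23.2% of all genes. Among those not tested, Ucp1 had means of 2.42 log2 CPM in controls and -2.50 in anomalies. Dio2, also not tested, went the other way, at 0.42 and 0.81. The summed level of the 8 was 7.19 to 70.5 CPM in the anomalies, highest in the arm piece of M566 and 16.5 CPM in the leg piece. Elovl3 was the highest of the 8 in both pieces, at 5.47 log2 CPM in the arm and 3.26 in the leg. Ucp1 stood there at -0.43 and -2.79 log2 CPM. The brown fat markers given by name were chosen after their values were seen. In controls F539, M5, M602 and M2 the sum was 113, 23.9, 37.7 and 88.9 CPM, the same order as Cidea. The epithelial sum of M2, next to F539 in Cidea, was 7.97 CPM. The part of brown or beige fat cells in the level of Cidea was not tested. Cidea minus Cidec differed by 0.94 between the groups (permutation p = 0.682, adjusted 0.682) and turned sign without M566 (-0.13) or M5 (-0.18).

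Among the enzymes, Pnpla2, the gene of the first triglyceride lipase ATGL (chromosome 7, 141455198 to 141460743), fell with the smallest adjusted p but one. It stood at 11.41, 11.46, 11.76 and 12.12 log2 CPM in F539, M5, M602 and M2, a narrow band. The anomalies ran from 5.88 over 7.46 to 11.003, all below the controls, with 18f only just so. Pnpla2 changed by -3.74 ± 0.79 (adjusted p = 0.00470), or 13.4-fold lower. Lipe, the gene of hormone-sensitive lipase (chromosome 7, 25379527 to 25398710), stood at 10.47, 11.26, 11.69 and 11.65 in the controls and ran from 3.88 over 6.83 to 9.66 in the anomalies. No library overlapped, and the log2 fold change was -4.56 ± 0.93 (adjusted p = 0.00408), or 23.6-fold lower. Both genes were also past the threshold with limma-voom, at adjusted p of 0.0223 for Pnpla2 and 0.0316 for Lipe. Lipe minus Pnpla2 was lower by 0.82 in the anomalies (permutation p = 0.0606, adjusted 0.111), which did not pass.

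Mgll, the gene of the lipase for the last step (chromosome 6, 88724412 to 88828360), is also made outside fat, where it breaks down the endocannabinoid 2-arachidonoylglycerol. Controls stood at 10.23, 11.45, 11.48 and 11.14 log2 CPM. The anomalies ran from 6.81 over 8.63 to 11.75, and the leg piece of M566 at 11.75 lay above every control, while the other 7 lay below every control. Mgll changed by -2.62 ± 0.69 (adjusted p = 0.0132). With the leg piece alone standing for M566 it was -2.41 (adjusted p = 0.0502), and with limma-voom -2.62 (0.0508). In that leg piece Plin1 was at 2.84 and the epithelial sum was the highest of all libraries, so Mgll was high there where fat cell markers were low. The arm piece, with an epithelial sum of 5210 CPM, had Mgll at 8.73, below every control. F539, the control with the highest epithelial sum (1122 CPM), had the lowest control value of Mgll. The part of epithelial cells in the level of Mgll was not tested. Mgll minus Pnpla2 differed by 1.12 (permutation p = 0.212, adjusted 0.247).

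Abhd5, the gene of the activator of ATGL, which lacks lipase activity of its own (chromosome 9, 122351608 to 122381524), was the called gene with the smallest fall. Controls stood at 6.74, 6.93, 7.15 and 7.29 log2 CPM and the anomalies ran from 4.53 over 5.17 to 7.11. Library 18f and the leg piece of M566 lay within the controls and the other 6 below them. Abhd5 changed by -1.67 ± 0.44 (adjusted p = 0.0133), or 3.18-fold lower, and -1.48 with limma-voom (adjusted p = 0.0267). Its distance to Pnpla2 was almost the same in each control, at -4.67, -4.53, -4.61 and -4.82 log2 units. In the anomalies the distance ran from -3.89 in 18f to 0.70 in the leg piece of M566, above all controls in 7 of 7 animals. The means differed by 2.08 (-2.58 ± 1.21 and -4.66 ± 0.12, SD; exact two-sided permutation p = 0.0121, adjusted 0.0424). Abhd5 RNA was thus less reduced than Pnpla2 RNA, a difference that rests on 4 controls. Pnpla2 changed by -3.74, against a median of -0.10 over all genes tested. How many other genes shift as much against Pnpla2 was not tested. For Abhd5 minus Pnpla2, leaving out any 1 control gave 2.02 to 2.12 (adjusted permutation p of 0.0778 to 0.117). Leaving out M278 gave 2.27 (adjusted permutation p = 0.0667). Without M580, 18f or M605 the adjusted permutation p was 0.05, and without M566, F578 or M610 0.0333. Exons of Abhd5 and Lipe share 15.9% and 15.6% of their bases with a gene on the opposite strand, whose reads an unstranded kit cannot separate.

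**Figure D3:**
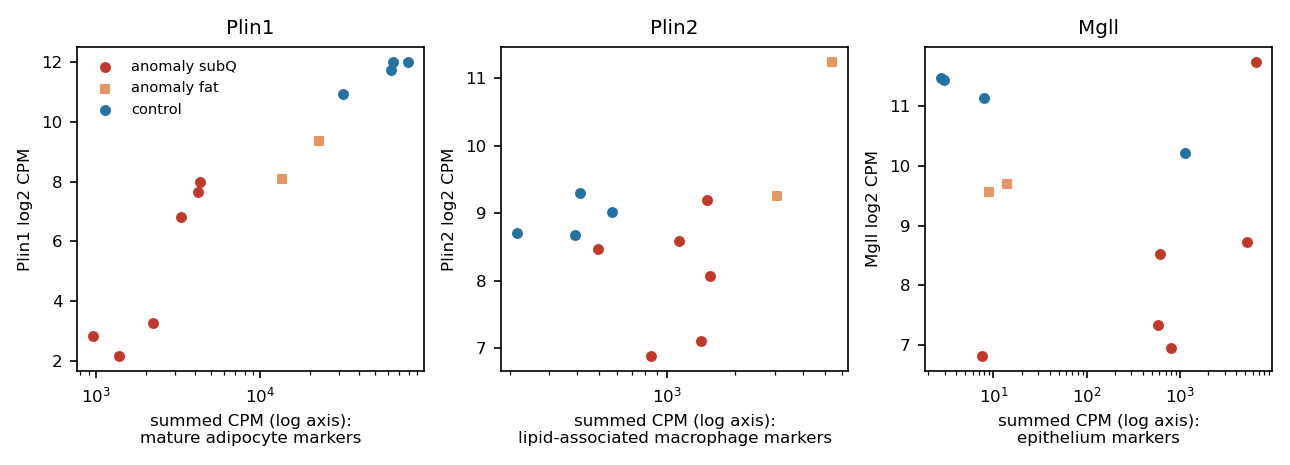
Log2 CPM of Plin1, Plin2 and Mgll (vertical axes) against the summed CPM of mature fat cell, lipid-associated macrophage and epithelial markers (horizontal log axes), 1 point per library; blue is control, orange squares fat-titled and red circles subQ-titled anomalies. Plin1 spans 2.15 to 12.01 log2 CPM and is highest in the 4 controls, which hold the highest fat cell sums. Library 18f holds the highest Plin2 (11.24) and the highest macrophage sum (5405 CPM), while control F539 has Plin2 at 9.30 with a macrophage sum of 411 CPM. The leg piece of M566 holds the highest Mgll (11.75) and epithelial sum (6542 CPM), while its arm piece, at 5210 CPM, has Mgll at 8.73.

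Expressed per kilobase of exon, the order of the genes differed between the groups. In the controls the mean level in log2 CPM per kb was 10.73 ± 1.29 for Cidec, 10.09 ± 0.33 for Pnpla2, 9.63 ± 1.20 for Plin4 and 9.45 ± 0.51 for Plin1 (SD, n = 4), and neighbours in this leading set lay closer than their larger SD. Mgll at 8.73 and Lipe at 8.71 followed and could not be ranked against each other. Plin2 came next at 7.11 ± 0.29, below Lipe by more than their spread, and then Cidea at 4.87 ± 2.12, Abhd5 at 4.46 ± 0.24 and Plin5 at 3.45 ± 0.37. In the anomalies the mean per-kb level of Plin2, at 6.87 ± 1.30, stood first, ahead of Pnpla2 at 6.35 ± 1.67, Mgll at 6.10 ± 1.43 and Cidec at 6.09 ± 3.01 (SD, n = 7). Plin1 stood in place 7 at 3.97 ± 2.75. No neighbours in the anomaly order differed by more than their larger SD.

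The anomalies also differed among themselves more than the controls did. The SD over animals was larger in the anomalies for 10 of 10 genes, and for 75.9% of all genes tested. Library 18f was the highest anomaly for 8 genes and the leg piece of M566 for the other 2, Mgll and Cidea. M610 was the lowest anomaly for 7 genes and among the lowest 3 anomaly libraries for all 10. The pieces of M566 came from 1 animal and still lay far apart. Leg minus arm was -3.98 log2 units for Plin1, -3.51 for Cidec, -2.83 for Plin4 and -2.70 for Lipe, and 3.02 for Mgll, 2.33 for Cidea, 2.32 for Plin2 and 1.84 for Abhd5. Beside these, the summed fat cell markers were 957 CPM in the leg and 3276 CPM in the arm, and the muscle markers 15.97 and 5004 CPM.

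Anomalies titled subQ had lower estimates than those titled fat for 10 of 10 genes, without passing the test. The share of all genes in that direction was not counted. In a limma fit with 3 groups, 0 of the 10 differed between the subQ and fat titles at an adjusted p under 0.05, against 0.0232% of all genes lower and 0.0154% higher. At an unadjusted p under 0.05 it was 8 of 10, against 14.8% of all genes. Pnpla2 differed by -2.87 ± 0.63 (SE, adjusted p = 0.156) and Plin2 by -2.19 ± 0.52 (adjusted p = 0.185). With 18f as the only fat-titled animal these differences were -3.88 and -3.19, and with M278 alone -1.87 and -1.20. Cidec differed by -4.22 ± 1.53 (adjusted p = 0.275) and Cidea by -0.18 ± 1.97 (adjusted p = 0.970). The estimate of Cidea turned sign with a pseudocount of 1 CPM (0.25) and without F578 (0.12), M610 (0.85) or M278 (0.96). Against the controls, 8 of 10 genes were lower in the subQ-titled anomalies, where 26% of all genes were called lower and 16.1% higher. At an unadjusted p under 0.05 it was 9 of 10, against 51.5% of all genes. In the fat-titled anomalies 0 of 10 passed in this fit, where 4.48% of all genes were called lower and 6.76% higher, and 3 of 10 had an unadjusted p under 0.05, as did 29.5% of all genes. Plin1 had a log2 fold change of -6.49 ± 1.13 in the subQ-titled anomalies (adjusted p = 0.00206) and of -2.95 ± 1.45 in the fat-titled ones (adjusted p = 0.205). The fat-titled call of Plin1 depended on the fit, since it passed with the fat-titled animals and controls alone (adjusted p = 0.0241). The fat-titled group has 2 animals, and both comparisons share the 4 controls.

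**Figure D4:**
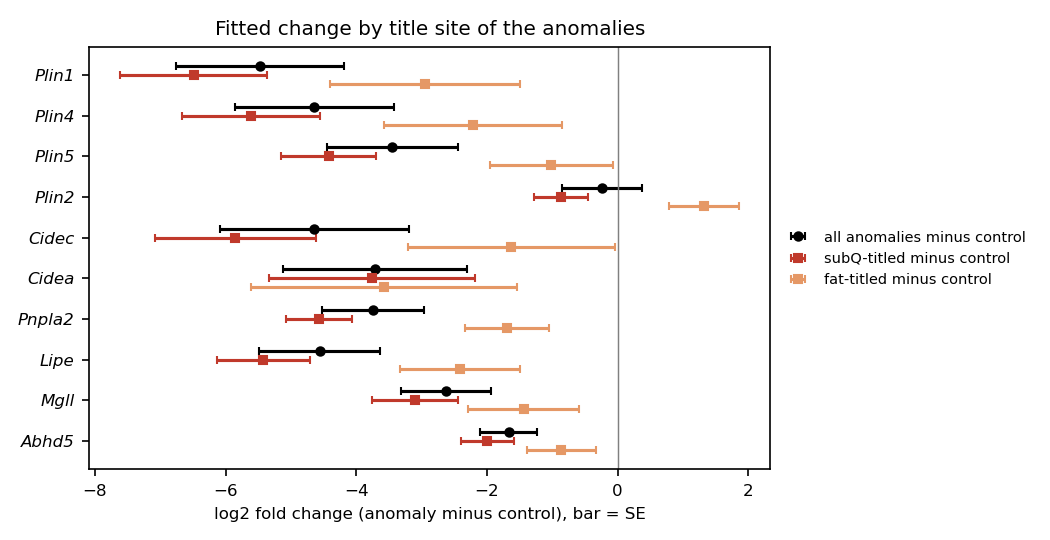
Log2 fold change against the 4 controls (horizontal axis, bars are SE) for all 7 anomaly animals (black), the 5 subQ-titled (red) and the 2 fat-titled animals (orange), from the 2-group and the 3-group fit. Red estimates lie left of orange ones for all 10 genes, from -6.49 and -2.95 for Plin1 to -0.87 and 1.33 for Plin2, and none of these differences passed the test. How many of all genes lie the same way was not counted.

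Other genes of the droplet surface changed in part. Of 20 listed genes 19 were found and 16 passed the filter on low values, 9 of them lower and 0 higher (median log2 fold change -0.86). Over all genes tested 23.2% were lower and 15.3% higher, with a median of -0.10. In the list the largest falls were in Pnpla3, a lipase relative of ATGL, at -5.37 ± 1.16, and in the carboxylesterase genes Ces1d (-5.27 ± 1.17) and Ces1f (-4.99 ± 1.30), which have close paralogs. Pnpla3 stood at 10.04, 8.05, 8.81 and 7.97 log2 CPM in F539, M5, M602 and M2 and at -1.17 to 5.63 in the anomalies. G0s2, the gene of a protein inhibitor of ATGL, fell by 3.84 on the log2 scale (SE 0.80, adjusted p = 0.00453), and was named after its values were seen. Plin3, the perilipin found in most cells, had a log2 fold change of -0.52 (adjusted p = 0.154), and Hilpda, a hypoxia-induced inhibitor of ATGL, of 0.75 (adjusted p = 0.387). Like Plin2 these are made outside fat cells, and were named after their values were seen.

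Among 17 listed genes that start or restrain lipolysis, all tested, 11 fell and 0 rose, against 23.2% and 15.3% of all genes. The median log2 fold change was -2.003 in the list and -0.10 over all genes tested. Npr3, the clearance receptor for natriuretic peptides, changed by -5.09 ± 1.31, Adora1, the adenosine receptor that restrains lipolysis, by -4.95 ± 1.19, and Adrb3, the beta 3 adrenergic receptor that starts it, by -4.92 ± 1.47 (adjusted p of 0.0116, 0.00871 and 0.0224). Adrb3 stood at 9.25, 5.84, 7.16 and 9.17 log2 CPM in the controls and ran from -1.32 to 6.26 in the anomalies. Of 10 genes that carry fatty acids and glycerol 6 fell and 0 rose (median -2.75), against the same shares of all genes. Aqp7, the glycerol channel of fat cells, changed by -4.84 ± 1.23, lipoprotein lipase (Lpl) by -4.13 ± 0.80 and the acyl-CoA synthetase gene Acsl1 by -3.88 ± 0.76. Cd36, a fatty acid transporter made by fat cells, endothelium and macrophages, had -2.92 ± 1.09 (adjusted p = 0.0540). Cd36 was named after its values were seen.

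Across all tested genes outside these lists, those whose log2 values followed Plin1 most closely over the 11 animals were Smoc1, B3galt2, Fmo1, Lgals12 and Tshr, with Pearson r from 0.990 to 0.994. Among the members, Lipe had an r of 0.986 (place 18 of the 12955 genes), Plin4 of 0.981 (place 29), Cidec of 0.974 (place 48) and Pnpla2 of 0.944 (place 148). Plin5, Abhd5 and Mgll stood between 0.816 and 0.859, Cidea at 0.519 and Plin2 at 0.363. The points share the group difference and the libraries, so these values describe likeness alone.

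Upstream windows of 250 bases were listed by RefSeq for 9 of the 10 genes, in 13 windows. The C/EBP-type string TTNNGCAAT, searched on both strands, was found in Plin1 and in Cidec and in 1.93% of all 32851 windows. The half-site AGGTCA was found in Plin2, Plin5 and Abhd5 and in 14% of windows, and its direct repeat with 1 base between in none of the 9 genes and in 0.338% of windows. AGGTCA is part of TCAAGGTCA, which was in none of the 9 genes. The GC box GGGCGG was found in Lipe, Mgll, Abhd5, Plin5 and Pnpla2 and in 32.7% of windows, and TATAAA in none of the 9 genes and in 12.4%. The letters CCAAT (Plin2, Plin4 and Plin5), CACGTG (Lipe and Mgll) and TCAAGGTCA were in 33.8%, 6.02% and 0.387% of windows. The stretch before the downstream start of Cidec (chr6:113434765-113435014, minus strand, GRCm38.p6) is shown because it shares the C/EBP-type string with Plin1, in capitals and read on the other strand.
Cidec: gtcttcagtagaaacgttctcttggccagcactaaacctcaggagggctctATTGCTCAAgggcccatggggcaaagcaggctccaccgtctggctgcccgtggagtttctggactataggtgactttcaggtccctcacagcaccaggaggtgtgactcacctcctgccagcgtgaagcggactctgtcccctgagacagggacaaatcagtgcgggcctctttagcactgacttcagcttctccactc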

How the data were processed

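The authors deposited 1 table of normalized log2 values (log2 CPM with a small prior), with a shared lowest value of -6.97. Per the submitters' processing notes STAR and limma were used with builds mm10 and GRCm38; versions, scaling function and prior are not given in the sources used here. Per the labels' protocols the poly-A kit kept no strand. After the prior was subtracted, 100% of values lay within 0.1 of a whole multiple of 1 read. The column of M605 has a control name in the first header line and is an anomaly by the other header line and its labels, which were followed. Of the identifiers 32671 had a symbol in the reference.

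Tests used limma 3.58.1 (R 4.3.3, statmod 1.5.0) on genes averaging 1 log2 CPM or more over the 11 animals (M566 pieces averaged), with empirical Bayes moderation, mean trend and robust variances; the code was tested on simulated data. All 10 members passed that filter. Replicates are animals, and p-values judge group differences against the spread between animals. For limma-voom the reads of the M566 pieces were summed. Within-library differences were tested by exact permutation over animals. Named were the 10 members, the 3 largest called changes of each list and the genes most like Plin1; other genes are marked as chosen after their values were seen. Members, lists and tests were chosen with earlier results of these data known. Alternatives varied scaling, filter, pseudocount, tool, site and animals; the single M566 pieces and the omission of M566 with F539 were added after seeing the data. Coordinates are GENCODE vM21 (GRCm38) and sequences RefSeq (GRCm38.p6). The result of 1 gene is not reported here.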

Additional observations from a re-analysis of the deposited data

Results flagged for a closer look

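Among 34 groups of values of the 10 genes and 7 differences looked at for an animal far from its group, 1 stood out, where chance gives about 1 in 20. Plin4 in control F539 was at 10.36 log2 CPM, and the nearest control, M2, at 12.56, a gap of 0.875 of the whole control range. F539 was also the control with the highest epithelial sum and the lowest fat cell sum, and the part of either was not tested. Without F539 the log2 fold change of Plin4 was -5.24.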

How the results depend on the processing

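No paired analysis was possible because the labels give no replicate numbers that link anomaly and control animals. Treating the animal of the M566 pieces as a random effect could not be fitted with 1 repeated animal. Over 25 or 26 alternatives each, the 8 called genes stayed lower in all, and Plin2 alone turned sign, to 0.19 with library totals, 1.33 in the fat-titled anomalies and 0.022 without M605 (-0.67 to 0.022 with 1 animal left out). The members called lower were 8, and 4 with limma-voom, 1 in the fat-titled anomalies and 6 to 9 when 1 animal was left out. Over all genes 1985 were higher and 3001 lower; with library totals 4618 and 1583, in the fat-titled anomalies 822 and 696, and with 1 animal left out 1205 to 2295 and 1823 to 3522, the lowest without M602. The median of all genes was -0.10, and 0.33 with library totals. Between the subQ and fat titles 5 genes differed, and 49 without a filter, 3 with a filter of 3 log2 CPM, 2 with a pseudocount of 1 CPM, 8 without trend and robust variances and 0 to 208 with 1 animal left out, the highest without M278, where 2 members differed (0 to 2 in all). With 1 animal left out, Plin2 minus Plin1 ran from 4.67 to 5.74 and Abhd5 minus Pnpla2 from 1.75 to 2.29, both losing the call without M580, 18f, M278 or any control (Abhd5 also without M605). Cidea minus Cidec ran from -0.18 to 2.34, turning sign to -0.13 without M566 and -0.18 without M5. In the shallow library of M580, Plin5, Cidea and Plin1 rested on under 20 reads.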
